A study of Mus musculus with 8 samples.

Results

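A set of 10 genes of protein folding and stress in the endoplasmic reticulum was described in mouse dermal fibroblasts: Hspa5, Hyou1, Pdia4, Dnajb9, Sdf2l1, Manf, Herpud1, Xbp1, Atf4 and Ddit3. They were taken by symbol, with every probe set annotated to exactly 1 of them, which gave 10 genes of 17097 and 18 probe sets of 45141. Expression was measured by microarray in 8 mice, with 1 array per animal. The back skin of 4 mice had received GW9662, 150 nmol in 300 µl of acetone, 3 times a week for 6 months from an age of 12 months, and that of the 4 vehicle mice had received the same volume of acetone on the same schedule. GW9662 binds PPARG, a nuclear receptor of adipocyte differentiation, and blocks it irreversibly. Animals of both groups were killed in pairs on the same day, and the pairs were read from the replicate numbers. The cells were sorted by flow cytometry from collagenase-digested skin without its subdermis, as Pdgfra-positive and CD34-positive cells negative for CD45, CD117, CD24, CD31 and EpCam, and RNA came from 5000 cells amplified over 21 cycles. The labels give no strain or sex, and acetone reached both groups, so untreated skin is not part of the comparison.

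The endoplasmic reticulum folds secreted and membrane proteins, and dermal fibroblasts, which secrete large amounts of collagen, depend on it heavily. When unfolded proteins accumulate there, 3 membrane sensors respond. IRE1 splices the mRNA of Xbp1 into the form that encodes an active transcription factor, ATF6 is cut to release another, and PERK slows translation while favouring that of Atf4. These factors raise chaperones, degradation components and, under lasting stress, Ddit3.

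Upstream sequence is shown for Hspa5, Pdia4 and Herpud1, whose windows held a match to the element described next or to a close form of it, and for Sdf2l1, which of the 10 genes varied most among the 8 samples. The endoplasmic reticulum stress element (ERSE), bound by ATF6 and XBP1 with NF-Y, reads CCAAT, any 9 bases, CCACG. The 250 bases before the start of the gene are from RefSeq, build GRCm38.p6, printed 5′ to 3′ on the gene's strand. Capitals mark the ERSE in Hspa5 and an ERSE without its last letter on the opposite strand in Pdia4. In Herpud1 they mark, from left to right, a CARE, an ERSE-II and an ERSE without its last letter, where the window ends. In Sdf2l1 the capitals mark CCACG alone, on the opposite strand.
Hspa5, chr2:34771840-34772089 (+ strand): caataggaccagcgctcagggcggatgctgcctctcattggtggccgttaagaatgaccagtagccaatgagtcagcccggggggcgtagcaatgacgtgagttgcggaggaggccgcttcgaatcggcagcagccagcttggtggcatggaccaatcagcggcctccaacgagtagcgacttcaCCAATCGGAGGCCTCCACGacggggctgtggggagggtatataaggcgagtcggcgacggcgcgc
Pdia4, chr6:47813513-47813762 (- strand): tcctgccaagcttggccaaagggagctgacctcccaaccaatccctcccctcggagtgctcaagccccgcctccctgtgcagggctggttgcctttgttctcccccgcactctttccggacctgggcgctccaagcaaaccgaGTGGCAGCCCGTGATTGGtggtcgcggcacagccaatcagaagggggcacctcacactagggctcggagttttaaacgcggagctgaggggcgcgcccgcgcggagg
Herpud1, chr8:94386179-94386428 (+ strand): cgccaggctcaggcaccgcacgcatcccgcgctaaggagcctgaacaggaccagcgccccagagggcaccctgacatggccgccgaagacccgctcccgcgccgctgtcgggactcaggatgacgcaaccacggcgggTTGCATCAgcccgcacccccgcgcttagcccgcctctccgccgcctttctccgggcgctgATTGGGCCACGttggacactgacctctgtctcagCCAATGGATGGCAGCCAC
Sdf2l1, chr16:17132384-17132633 (- strand): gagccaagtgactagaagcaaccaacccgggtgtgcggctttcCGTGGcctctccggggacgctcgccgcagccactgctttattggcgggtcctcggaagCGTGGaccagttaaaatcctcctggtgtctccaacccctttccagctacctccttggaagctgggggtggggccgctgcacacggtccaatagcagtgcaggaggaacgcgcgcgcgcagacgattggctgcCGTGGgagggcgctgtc

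Windows were matched by symbol for 8 of the 10 genes, and Hyou1 and Manf had no entry. The full ERSE lay in Hspa5 at bases -65 to -47 before the start and within no other of the 8 windows. It lay in 0.113% of 32851 windows of the same length in the table. Without its last letter, a form chosen after the matches had been seen, it lay in 3 of the 8 windows (Hspa5, Pdia4 at -107 to -90 and Herpud1 at -18 to -1), against 0.32% of all. The match in Herpud1 ends with the window, so its last letter was not read and a full ERSE there is not excluded. The ERSE-II (ATTGG, any 1 base, CCACG), which holds CCACG and the reverse complement of CCAAT, lay in Herpud1 at -52 to -42, against 0.0304% of all. The amino acid response element bound by ATF4 (CARE, TTGC followed directly by ATCA) lay in Herpud1 at -112 to -105, against 0.791% of all, and the element bound by XBP1 (UPRE, TGACG followed directly by TGG) in none of the 8, against 0.563% of all. The end pieces of the ERSE, which overlap it by construction, are common: CCACG lay in 5 of the 8 windows and 28.3% of all, and CCAAT in 7 of the 8 and 33.8% of all. All motifs were searched on both strands, and a match is a description of these letters, not of binding.

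Before the comparison, 1 sample stood apart. On the first principal component of all genes, with 28.2% of the variance, vehicle 4 lay at 22.2 and the other 7 samples between -10.4 and 5.49. The sort markers and other fibroblast markers were at similar levels in both groups: the 8 measured of 8, among them Pdgfra, Cd34 and Col1a1, had a mean level of 10.05 to 10.18 on the log2 scale in GW9662 samples and 9.91 to 10.20 in vehicle samples. Pdgfra alone was at 4.80 to 5.13 in GW9662 samples and 4.63 to 5.08 in vehicle samples, under the median of all gene means (5.27). Mean levels in GW9662 samples were 3.59 to 3.73 for 4 of 7 plasma cell markers, 4.53 to 4.62 for 8 of 8 leukocyte markers, 4.55 to 4.64 for 8 of 8 keratinocyte markers, 5.02 to 5.27 for 6 of 7 endothelial or mural markers, 3.53 to 3.70 for 3 of 6 adipocyte markers and 4.35 to 4.57 for 6 of 8 melanocyte, Schwann cell or muscle markers. In vehicle samples the same lists were at 3.66 to 3.75, 4.55 to 4.61, 4.58 to 4.64, 4.94 to 5.63, 3.57 to 3.77 and 4.26 to 4.42. Single genes of these lists were brighter, among them Cd68 at 7.92 to 8.41 and 8.07 to 8.54 in GW9662 and vehicle samples. In the same order, Kdr was at 7.26 to 8.12 and 6.72 to 8.58 and Cd79a at 6.70 to 7.22 and 6.82 to 7.29. Krt10 was at 6.76 to 7.01 and 6.66 to 7.15. All of these ranges overlap between the groups. The array values come without detection calls, and levels of different probe sets are not compared as amounts of transcript. The part of other cell types in the results below was not tested. In such bulk samples, fewer cells of a type and less RNA per cell cannot be told apart.

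None of the 10 genes differed between GW9662-treated and vehicle-treated fibroblasts beyond the spread between animals. On average 8 were lower and 2, Hspa5 and Herpud1, higher, with log2 differences of -0.16 to 0.07. The adjusted p was 0.997 for each in limma's test over 17097 genes, where 0% of all genes passed. An unadjusted p under 0.05 was reached by 0 of the 10 and by 3.38% of all genes, and with the replicate number as a block by 0 of the 10 and 4.83% of all genes. The values of the groups overlapped for all 10 genes, and 1.75% of all genes had groups that did not overlap. None of the 10 was lower in all 4 pairs, against 5.93% of all genes. The median log2 difference was -0.05 over the 10 genes and -0.005 over all genes, of which 51.8% were lower. Without vehicle 4 the medians were -0.12 and -0.0025.

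**Figure D1:**
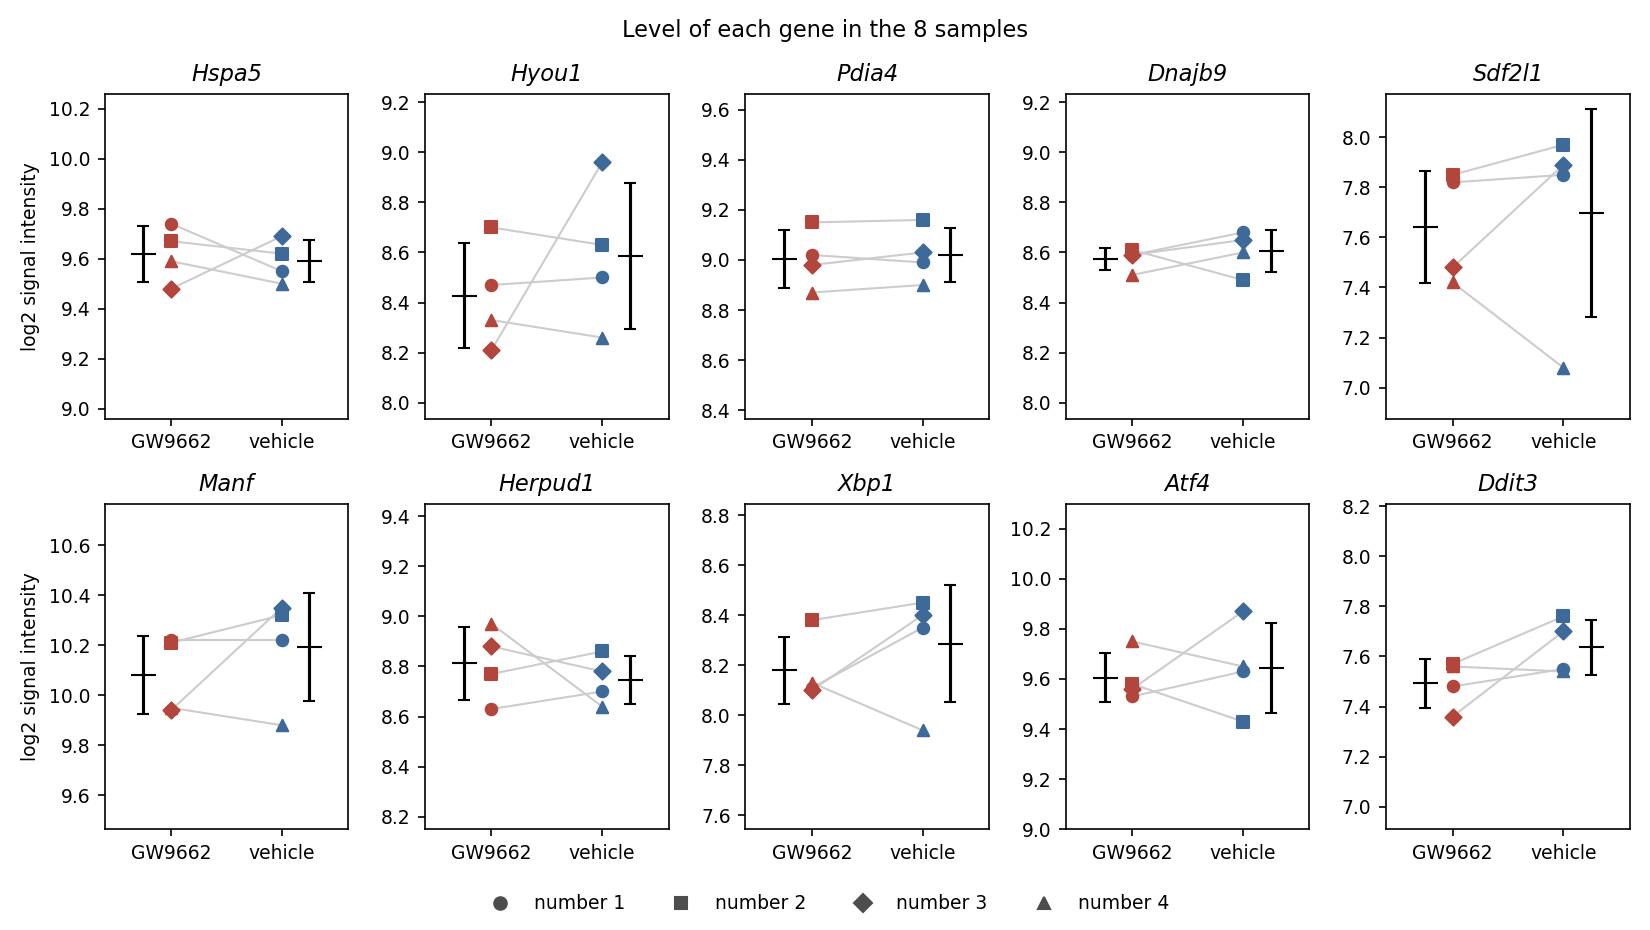
Log2 signal intensity of each gene (vertical axis, a span of 1.3 in every panel) in GW9662 samples (red, left) and vehicle samples (blue, right). Grey lines join samples with the same number, marker shapes give the number, and black bars are group means ± SD (n = 4); the groups overlap in every panel, Sdf2l1 has the widest spread, and vehicle 4 is lowest for Sdf2l1, Manf and Xbp1.

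For none of the lumenal chaperones did the 95% interval of the difference leave out 0. Hspa5 encodes BiP, the main Hsp70 chaperone of the endoplasmic reticulum, which also holds the sensors inactive. Its level was 9.74, 9.67, 9.48 and 9.59 in GW9662 1 to 4 and 9.55, 9.62, 9.69 and 9.50 in vehicle 1 to 4. GW9662 1 was the highest sample and GW9662 3 the lowest, and the groups overlapped. The log2 difference was 0.03 ± 0.07 (SE, n = 4 per group), with a 95% interval of -0.13 to 0.19.

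Hyou1, a large Hsp70-type chaperone that exchanges the nucleotide of BiP, had the largest difference of the 10. It stood at 8.47, 8.70, 8.21 and 8.33 in GW9662 1 to 4 and at 8.50, 8.63, 8.96 and 8.26 in vehicle 1 to 4. The highest and the lowest sample were both numbered 3, vehicle 3 and GW9662 3, and pair 3 differed by -0.75, while the other 3 pairs differed by -0.03 to 0.07. The log2 difference was -0.16 ± 0.15 (95% interval -0.49 to 0.17).

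Pdia4, a protein disulphide isomerase, was at 9.02, 9.15, 8.98 and 8.87 in GW9662 1 to 4 and at 8.99, 9.16, 9.03 and 8.90 in vehicle 1 to 4. Samples with the same number lay within 0.05 of each other, less than the range of 0.29 over all 8. The log2 difference was -0.015 ± 0.08 (95% interval -0.19 to 0.16). Dnajb9, a J-domain partner of BiP, varied least of the 10, at 8.59, 8.61, 8.59 and 8.51 in GW9662 1 to 4 and 8.68, 8.49, 8.65 and 8.60 in vehicle 1 to 4. It spanned 0.19 over the 8 samples, and 88.8% of all genes spanned more.

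Sdf2l1, a lumenal partner of the chaperone cycle of BiP, varied most. Its level was 7.82, 7.85, 7.48 and 7.42 in GW9662 1 to 4 and 7.85, 7.97, 7.89 and 7.08 in vehicle 1 to 4. Vehicle 4 was the lowest of the 8 and lay 0.77 under the next vehicle sample, so that the vehicle group held both the highest and the lowest value. Its range of 0.89 was exceeded by 3.11% of all genes, and the median range was 0.42 for the 10 genes and 0.35 for all. The log2 difference was -0.055 ± 0.19 with vehicle 4 and -0.26 without it, where the unadjusted p was 0.0471 and the adjusted p 0.998 in limma's test.

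Manf, a small protein kept in the endoplasmic reticulum with BiP and secreted under stress, was at 10.22, 10.21, 9.94 and 9.95 in GW9662 1 to 4 and 10.22, 10.32, 10.35 and 9.88 in vehicle 1 to 4. Samples numbered 1 and 2 were high in both groups, samples numbered 4 low in both, and those numbered 3 low after GW9662 and high in vehicle. The log2 difference was -0.11 ± 0.11 (95% interval -0.37 to 0.14). Herpud1, a membrane protein of the machinery that moves misfolded proteins out for degradation, had another order. It stood at 8.63, 8.77, 8.88 and 8.97 in GW9662 1 to 4 and 8.70, 8.86, 8.78 and 8.64 in vehicle 1 to 4, with GW9662 4 highest, GW9662 1 lowest and a difference of 0.07 ± 0.08.

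For the 3 transcription factors too, the 95% interval of the difference held 0. Xbp1 was at 8.11, 8.38, 8.10 and 8.13 in GW9662 1 to 4 and 8.35, 8.45, 8.40 and 7.94 in vehicle 1 to 4. GW9662 2 was well above the other GW9662 samples and vehicle 4 well below the other vehicle samples, and the difference was -0.105 ± 0.12. Array levels of this kind do not tell the spliced from the unspliced mRNA. Atf4, whose protein is controlled mainly at translation, was at 9.53, 9.58, 9.56 and 9.75 in GW9662 1 to 4 and 9.63, 9.43, 9.87 and 9.65 in vehicle 1 to 4, with both extremes among vehicle samples and a difference of -0.04 ± 0.09.

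Ddit3, which encodes CHOP, a factor that promotes cell death under lasting stress, had the smallest p of the 10. Its level was 7.48, 7.57, 7.36 and 7.56 in GW9662 1 to 4 and 7.55, 7.76, 7.70 and 7.54 in vehicle 1 to 4. Vehicle 2 and 3 lay above all GW9662 samples, vehicle 1 and 4 lay within their range, and GW9662 samples were lower in 3 of 4 pairs. The log2 difference was -0.145 ± 0.08 (95% interval -0.31 to 0.02), with an unadjusted p of 0.0846 and an adjusted p of 0.997 in limma's test, and an exact two-sided permutation p of 0.171, for which the smallest possible value with 70 assignments is 0.0286.

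**Figure D2:**
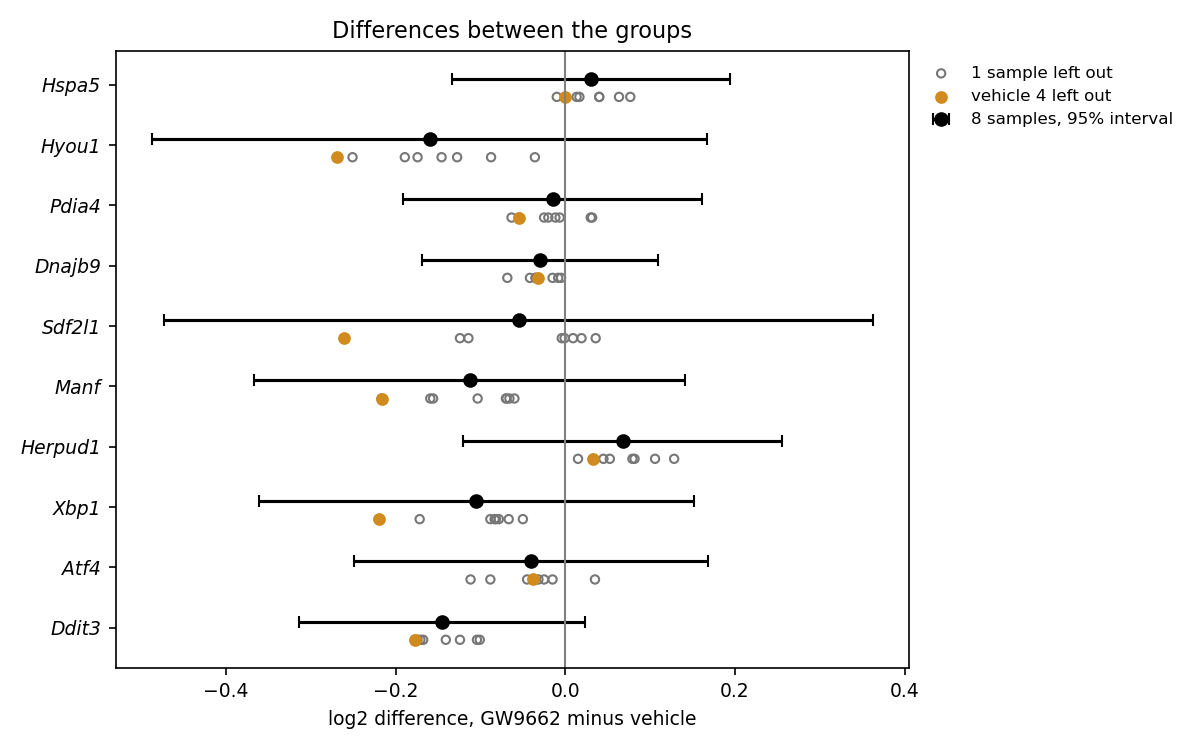
Log2 difference between GW9662 and vehicle samples (horizontal axis, GW9662 minus vehicle) of each gene. Black points and bars are all 8 samples with 95% intervals, all of which include 0, open grey circles leave out 1 sample at a time, and orange points leave out vehicle 4, which moves Sdf2l1, Manf, Xbp1 and Hyou1 most.

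Leaving out vehicle 4 moved several of these values. Without it Manf was at -0.22 (unadjusted p = 0.0394) and Xbp1 at -0.22 (unadjusted p = 0.0242), and with Sdf2l1 this made 3 of the 10 lower at an unadjusted p under 0.05, against 1.96% of all genes, all with an adjusted p of 0.998 in limma's test. Vehicle 4 was the sample in which these 3 genes were lowest, so leaving it out raises the vehicle mean of each. Without both samples numbered 4, 1 of the 10 had an unadjusted p under 0.05, against 5.08% of all genes; it was Ddit3 at -0.20, with an adjusted p of 0.917 in limma's test.

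The other probe sets of these genes gave no call either. Over the 18 probe sets, 12 were lower and 6 higher after GW9662, and 0 had an unadjusted p under 0.05, against 3.54% of 28898 probe sets. The 3 sets of Hyou1 differed by -0.16, -0.23 and -0.24 and correlated with the brightest at 0.84 and 0.90 over the samples. The 4 sets of Xbp1 differed by -0.105, -0.04, 0.08 and -0.01, those of Hspa5 by 0.03 and 0.09 and those of Herpud1 by 0.07 and 0.0075. Atf4 was the exception to close agreement. Its dim set, at 4.44, 4.41, 4.74 and 4.76 in GW9662 1 to 4 and 4.19, 4.38, 4.56 and 4.49 in vehicle 1 to 4, was 0.18 higher after GW9662, higher in 4 of 4 pairs, and correlated with the bright set at 0.35. Its groups overlapped. With the replicate number as a block it was the 1 set of the 18 with an unadjusted p under 0.05 (0.0293, limma), against 5.05% of all probe sets.

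Several of the 10 genes varied together over the 8 samples in the deposited values. In vehicle 4, 8 of the 10 lay below their own mean and 3 were at their lowest, and in vehicle 3 none lay below it and 3 were at their highest. The mean deviation of the 10 genes from their own means was -0.17 in vehicle 4 and 0.16 in vehicle 3, the extremes of the 8 samples, both in the vehicle group. GW9662 samples ran from -0.11 in GW9662 3 to 0.08 in GW9662 2.

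**Figure D3:**
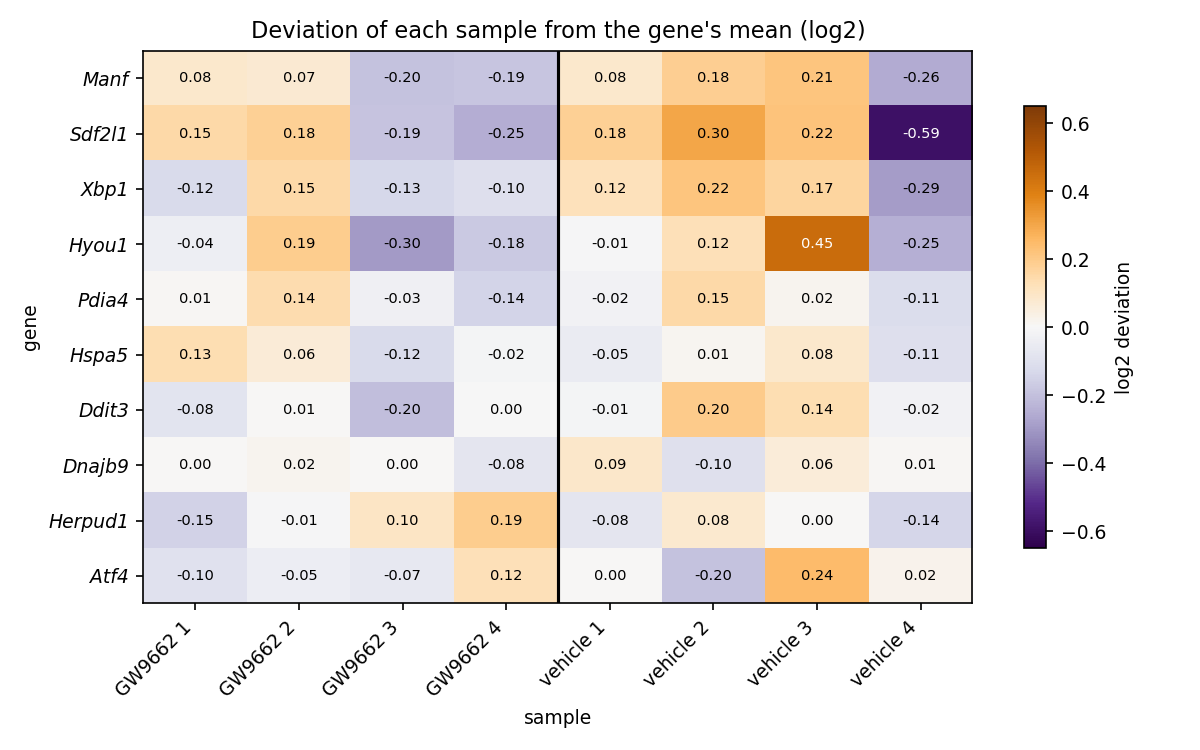
Deviation of each sample (columns, GW9662 samples left of the line and vehicle samples right) from the mean of each gene (rows), in log2 units. Manf, Sdf2l1, Xbp1 and Hyou1 are below their mean in GW9662 3, GW9662 4 and vehicle 4 and above it in GW9662 2, vehicle 2 and vehicle 3, while Herpud1, Dnajb9 and Atf4 do not follow them.

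All 45 pairs of the 10 genes were correlated over the 8 samples. Of these, 34 had a positive Pearson r, the median r was 0.31 and the median Spearman rho 0.37, and the median r of the 10 genes with all other genes was -0.02. An r of at least 0.7 was found in 12 pairs, and 11 of these kept it without the 2 samples farthest from the median of the pair's first gene. For Hyou1 with Sdf2l1 and for Pdia4 with Sdf2l1, vehicle 4, the lowest sample of Sdf2l1, was not among those left out. For each of the 10 genes, 1.67% to 7.39% of all other genes reached that r. The correlations rest on 8 arrays that share their normalisation, and the groups were pooled, but centring each group on its mean left 13 pairs at 0.7 or more.

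Manf and Sdf2l1 varied most closely together. Their r was 0.946 (exact permutation p = 5.95e-04, Benjamini-Hochberg adjusted over the 45 pairs 0.0268), their rho 0.898 (adjusted p = 0.0513, exact permutation), and r was 0.959 without GW9662 3 and vehicle 4. Among 17096 other genes, Sdf2l1 ranked 11 in its r with Manf. Xbp1 and Sdf2l1 had an r of 0.884 (exact permutation p = 0.00119, adjusted 0.0268) and a rho of 0.922 (adjusted p = 0.0513, exact permutation), and r was 0.743 without vehicle 2 and vehicle 4. These were the 2 pairs past the threshold by Pearson r, none passed by rho, and 10 pairs had an unadjusted p under 0.05.

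Hyou1 joined this group, with an r of 0.880 to Manf (exact permutation, adjusted p = 0.0519), 0.815 to Xbp1 and 0.756 to Sdf2l1, and Manf and Xbp1 had an r of 0.864 (exact permutation, adjusted p = 0.0519). Pdia4 had an r of 0.790 to Sdf2l1, 0.770 to Xbp1 and 0.757 to Manf, Hspa5 of 0.727 to Manf and 0.703 to Hyou1, and Ddit3 of 0.727 to Hyou1. None of these passed after adjustment. Without regard to the pairs, Atf4, Dnajb9 and Herpud1 stood outside, with median r of 0.06, 0.09 and -0.04 to the other 9 genes and no pair at 0.7 or more, and the lowest r were -0.595 for Dnajb9 and Herpud1 and -0.505 for Atf4 and Pdia4. Deviations from both the group means and the means of same-numbered samples, which rest on 4 pair differences, gave another grouping. Atf4 then had an r of 0.912 to Hyou1, 0.786 to Xbp1, 0.747 to Manf and 0.705 to Sdf2l1, while Pdia4 had -0.156 to Xbp1 and 0.230 to Sdf2l1. Manf and Sdf2l1 had 0.918 and Xbp1 and Sdf2l1 0.885. The highest r of this setting were 0.974 for Ddit3 and Manf, 0.963 for Ddit3 and Sdf2l1 and 0.927 for Hspa5 and Manf. Pair 3 had the largest difference for both Hyou1 (-0.75) and Atf4 (-0.31).

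**Figure D4:**
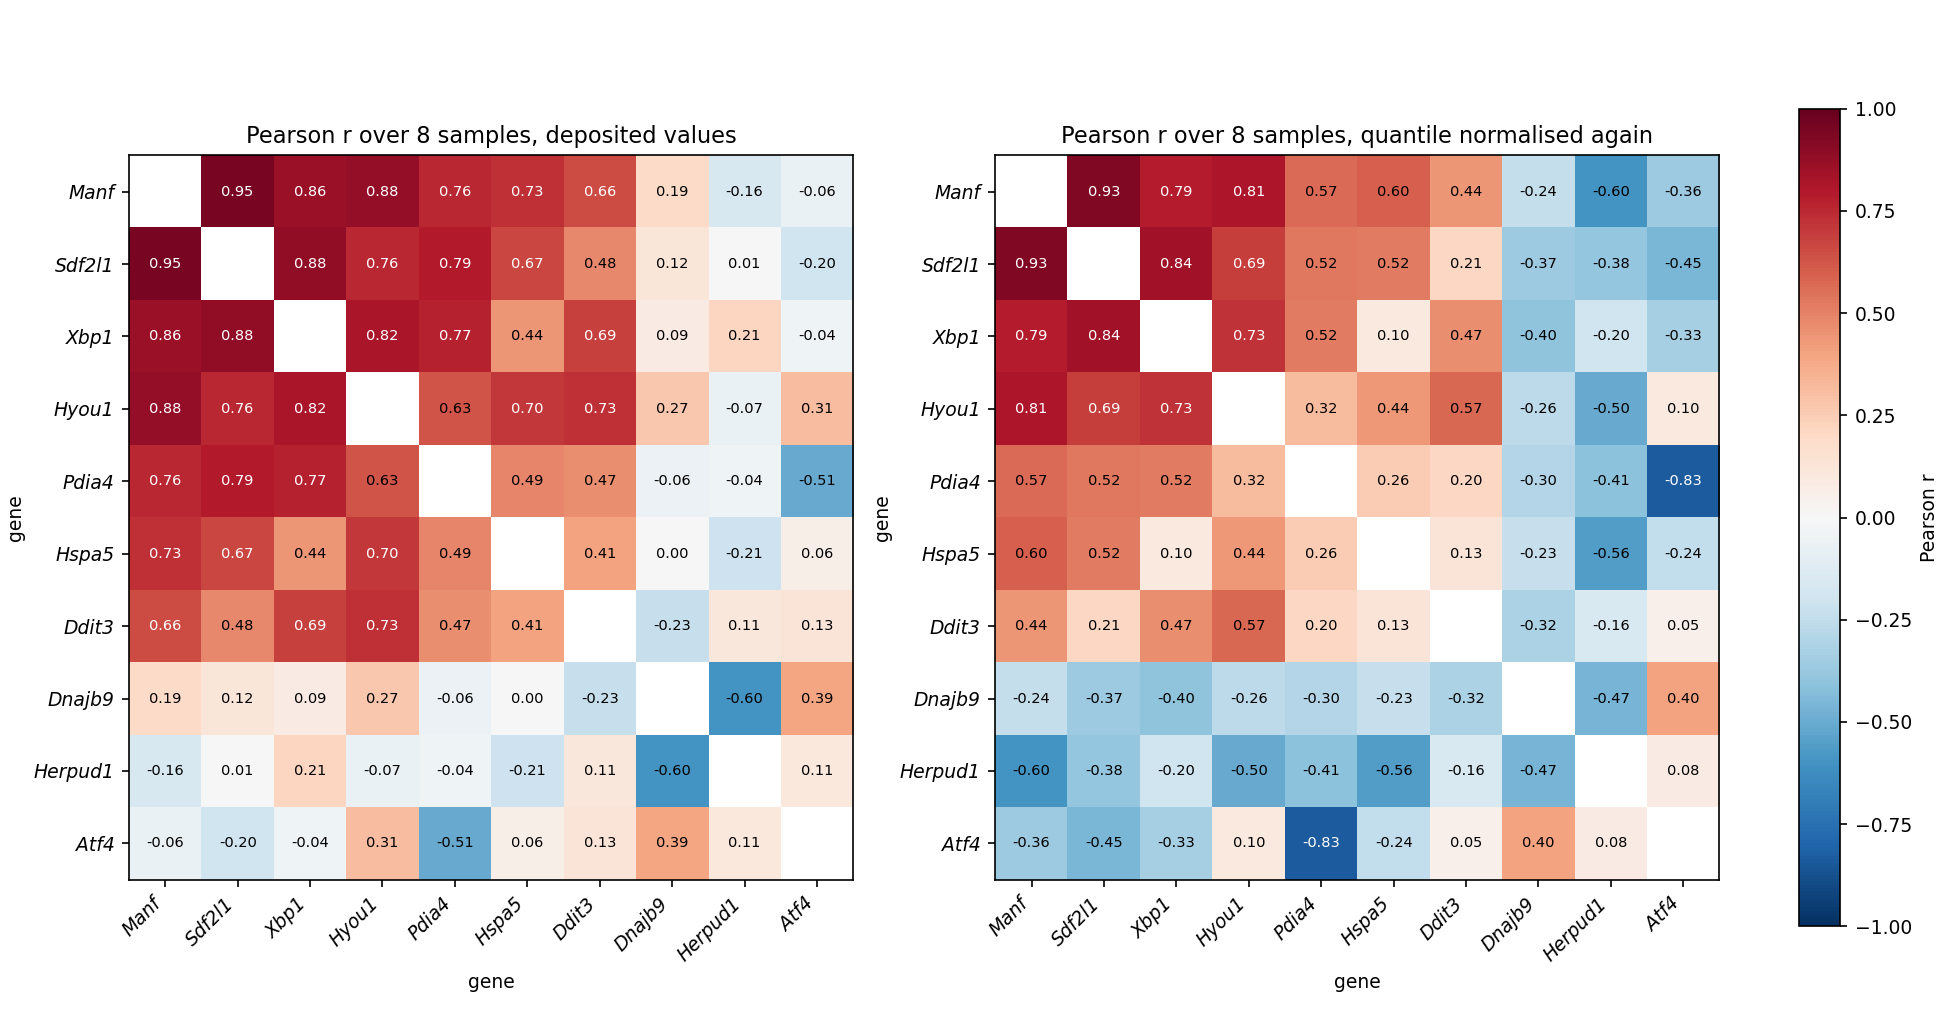
Pearson r over the 8 samples for each pair of genes (rows and columns), from the deposited values (left) and after the samples were quantile normalised again over genes (right). Manf, Sdf2l1, Xbp1 and Hyou1 form a block at 0.76 to 0.95 on the left and 0.69 to 0.93 on the right, and most other correlations are lower on the right.

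The median correlation was lower once shifts of genes of like brightness were removed. The 2610 genes whose mean lay in the range of the 10 genes had a median deviation of -0.08 in vehicle 4 and 0.046 in vehicle 3, with all other samples between -0.02 and 0.049. After renewed quantile normalisation the median r of the 45 pairs was 0.096 and 25 were positive, and after subtracting the shift of those genes, an alternative added after the values had been seen, it was 0.0995. No pair passed after adjustment under either. The pairs at 0.7 or more were then 5 in each case, which under renewed quantile normalisation were Manf and Sdf2l1 (r = 0.93, exact permutation, adjusted p = 0.0502), Xbp1 and Sdf2l1 (0.84, exact permutation, adjusted p = 0.0502), Hyou1 and Manf (0.81), Manf and Xbp1 (0.79), and Hyou1 and Xbp1 (0.73). Without vehicle 4 no pair passed, and 11 pairs had an r of at least 0.7.

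Measures of sample handling were set beside each gene. Early response genes such as Fos and Jun, which are induced when tissue is digested, had mean levels of 9.83, 9.89, 10.15 and 10.39 in GW9662 1 to 4 and 10.08, 9.92, 10.29 and 10.21 in vehicle 1 to 4 over 13 of 15 genes listed, 11 of which had a lower mean in GW9662 samples. The median difference of the list was -0.08, and -0.02 without vehicle 4. Of 20 relations of the 10 genes to this list and to the first principal component, none passed after adjustment. The closest were Atf4 with the list (r = 0.796, exact permutation p = 0.0157, adjusted 0.157, rho = 0.810 with exact permutation p = 0.0218, r = 0.783 without the 2 farthest samples) and Sdf2l1 with the component (r = -0.816, exact permutation p = 0.0124, adjusted 0.157, rho = -0.587 with exact permutation p = 0.134). The relation of Sdf2l1 rests on vehicle 4, since r was -0.485 without it and -0.089 without the 2 farthest samples. Next was Pdia4 with the list (r = -0.744, exact permutation p = 0.0356, adjusted 0.237, rho = -0.619 with exact permutation p = 0.115). Its r was -0.733 without vehicle 4. Atf4 had the same rho with the component as with the list, 0.810 (exact permutation p = 0.0218, adjusted 0.218). The r of Atf4 with the component was 0.535 over all 8 samples (exact permutation p = 0.181, adjusted 0.452). It was 0.893 without vehicle 4 and 0.906 without the 2 farthest samples. Whether tissue digestion had a part in the variation of Atf4 or Pdia4 was not tested.

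The genes most like Hspa5 over the 8 samples were named by Pearson r. They were Vps37a (0.943), a component of endosomal sorting, Kpnb1 (0.939), an importin of nuclear transport, Pop5 (0.938), a subunit of RNase P, Coro1b (0.935), an actin regulator, and Ahsa1 (0.920), an activator of the cytosolic chaperone Hsp90. Their rho ran from 0.857 to 0.952 and r without the 2 farthest samples from 0.860 to 0.992. Each had an adjusted p of 0.802 over 17096 genes by exact permutation, so none passed. By r with Hspa5, Manf ranked 280, Hyou1 361, Sdf2l1 508, Pdia4 1930, Xbp1 2395, Ddit3 2752, Atf4 6969, Dnajb9 7763 and Herpud1 10732 of the 17096.

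The 5 wider lists of the pathway were read in the same fit, and no gene of them passed (limma adjusted p = 0.997 for each gene named). Of the sensors and their proteases, 9 of 9 were measured, 3 higher and 6 lower (median log2 difference -0.04). Eif2ak3, which encodes PERK, was at 6.26, 6.17, 6.05 and 5.91 in GW9662 1 to 4 and 5.58, 6.12, 5.94 and 5.56 in vehicle 1 to 4. It was higher in 4 of 4 pairs, but vehicle 2 and vehicle 3 reached into the GW9662 range, and the difference of 0.30 ± 0.13 was 0.10 as a mean of its probe sets. The unadjusted p of Eif2ak3 was 0.0464 (limma), and without vehicle 4 its difference was 0.22 (unadjusted p = 0.128, limma). Creb3l2, a membrane-bound transcription factor of secretory cells, was at -0.08 ± 0.06.

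Of lumenal chaperones and disulphide enzymes, 22 of 22 were measured, 10 higher, 11 lower and 1 equal (median -0.006); without vehicle 4, 16 were lower and the median was -0.0575. Ero1b, an oxidase that supplies disulphide bonds, was at -0.15 ± 0.09, and at -0.205 without vehicle 4 (unadjusted p = 0.0296, limma), and Txndc5, a disulphide isomerase, at 0.15 ± 0.13 and at 0.016 without vehicle 4. Of PERK and ATF4 targets, 17 of 18 were measured, 8 higher and 9 lower. Their median was -0.0025, against -0.0475 without vehicle 4 and -0.10 without both samples numbered 4. The transcription factor Cebpg was at -0.165 ± 0.10, and at -0.25 without vehicle 4 (unadjusted p = 0.0133, limma), and the stress factor Nupr1 at -0.075 ± 0.08. In all 8 samples none of either list had an unadjusted p under 0.05. Without vehicle 4, 1 of the 22 (Ero1b) and 1 of the 17 (Cebpg) had it, against 623 of all 17097 genes. No gene of all passed after adjustment there.

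Most genes of degradation had a slightly higher mean in GW9662 samples, and so did most of protein entry and export, but the second count turned over without vehicle 4. Of 14 of 16 measured genes of endoplasmic reticulum-associated degradation, 11 were higher and 3 lower (median 0.07), and of 20 of 22 genes of entry into and export from the endoplasmic reticulum, 17 were higher and 3 lower (median 0.06), while 51.8% of all genes were lower. Without vehicle 4, the sample with the lowest mean level of both lists, the medians were 0.02 and -0.01, and 5 of 14 and 13 of 20 genes were lower. Erlec1, a lectin that recognises misfolded glycoproteins, was at 0.31 ± 0.11 (unadjusted p = 0.0230, limma) and at 0.12 as a mean of its probe sets, and Edem3, a mannose-trimming enzyme of the same route, at 0.19 ± 0.10. Without vehicle 4, Erlec1 was at 0.19 (unadjusted p = 0.0384, limma) and Edem3 at 0.10. Sec24d, a cargo adaptor of the vesicle coat that carries collagen out of the endoplasmic reticulum, was at 7.92, 7.88, 7.81 and 7.71 in GW9662 1 to 4 and 7.50, 7.76, 7.68 and 7.38 in vehicle 1 to 4. It was higher in 4 of 4 pairs with overlapping groups, by 0.25 ± 0.09 (unadjusted p = 0.0199, limma). Without vehicle 4 the difference of Sec24d was 0.18 (unadjusted p = 0.0526, limma). Sec62, of the translocation channel, was at 0.15 ± 0.09 and at -0.02 as a mean of its probe sets.

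**Figure D5:**
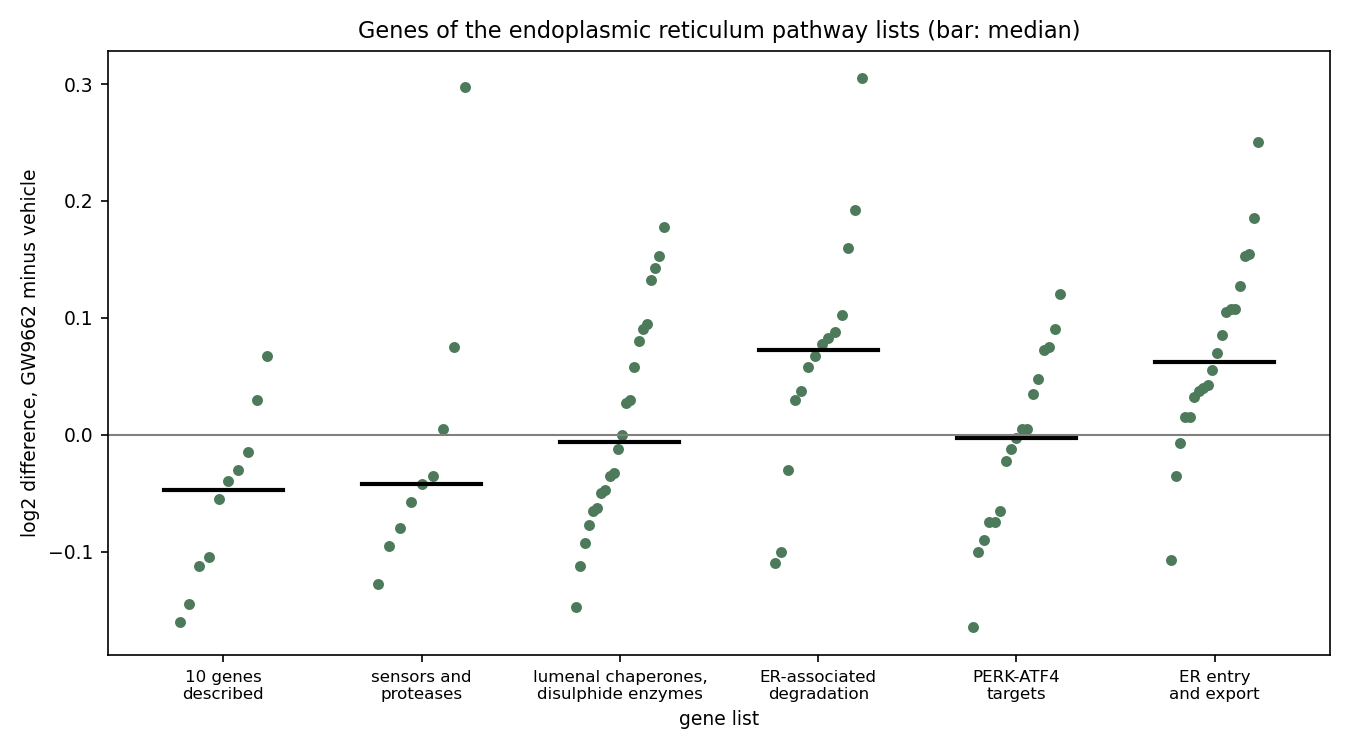
Log2 difference between GW9662 and vehicle samples (vertical axis, GW9662 minus vehicle) of each gene of the 10 described and of the 5 wider lists (horizontal axis), sorted within each list, with a bar at the median. Medians run from -0.05 for the 10 genes to 0.07 for degradation, and no gene passed after adjustment.

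The wider lists differed in how they followed Sdf2l1, of the 10 genes the one of widest range, across the 8 samples. An r of at least 0.7 with it was found for 13 of 22 lumenal chaperones and disulphide enzymes (59.1%), 12 of 20 entry and export genes (60.0%) and 5 of 14 degradation genes (35.7%), against 7.41% of all 17096 other genes. It was found for 1 of 17 PERK and ATF4 targets (5.88%), 1 of 9 sensors and their proteases and none of the 13 early response genes, whose r ran from -0.769 to -0.298. After renewed quantile normalisation the shares were 45.5% of chaperones, 40.0% of entry and export genes and 21.4% of degradation genes, against 5.78% of all genes, and without vehicle 4 they were 27.3%, 20.0% and 14.3%, against 5.16%. Mean levels in the samples were 8.28 to 8.63 for the chaperone list, 8.525 to 8.944 for entry and export and 7.60 to 7.90 for degradation. The median of all gene means was 5.27, and no share among genes of like brightness was taken. These are descriptions over 8 samples without a test.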

How the data were processed

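The deposited values are log2 signal intensities of 45141 probe sets in 8 samples. RMA and affy appear in the submitters' processing notes with no version, and the base of the logarithm was read from the values. RMA corrects background, equalises the arrays' distributions and summarises probes. No detection calls or depth come with such values, and the number of animals limits the precision. Amplification from few cells can change relative signals.

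The platform annotation gave the probe sets their genes, and a gene was represented by its set of highest mean. GW9662 minus vehicle was fitted with limma 3.58.1 in R 4.3.3 without covariates, two-sided, with Benjamini-Hochberg adjustment over 17097 genes and a threshold of 0.05. Correlations were tested by exact permutation of the 8 samples, which treats them as exchangeable and keeps neither the groups nor the same-numbered pairs. The procedure was tested on simulated data. Per the labels, 1 animal of each group was killed the same day. Across genes, the departures of same-numbered samples from their group means had correlations of 0.203, 0.163, 0.114 and 0.165, so the numbers were read as pairs and a replicate block was run beside the main test.

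The 10 genes, the pathway and marker lists and the tests were chosen with earlier results of these data known. Named beside the 10 genes were the 2 genes of smallest unadjusted p and any with an unadjusted p under 0.05 in each pathway list, and the 5 genes of highest r with Hspa5, passing over predicted genes. Sdf2l1 was set beside the lists after its values had been seen.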

Additional observations from a re-analysis of the deposited data

Results flagged for a closer look

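Of 20 groups of 4 samples (10 genes in both groups), 2 held a sample far from the other 3. Independent groups would give about 1 in 20 by chance. The 10 genes share the same 8 arrays, so the count cannot be set against that rate. Xbp1 in GW9662 2 was the highest of its group at 8.38 on the log2 scale, 0.25 above the next sample. Sdf2l1 in vehicle 4 was the lowest of its group at 7.08, 0.77 below the next sample.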

How the results depend on the processing

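Of 170 recomputed differences of the 10 genes, 159 kept their sign, 10 turned and 1 was 0 (Hspa5 without vehicle 4). Part of the kept signs were fixed by construction. The replicate block, limma's trend and robust variances and the fit of brighter genes alone cannot change the difference of any of the 10. The block without both samples numbered 4 repeats the differences found there without it. Means of probe sets change nothing for the 5 genes with 1 probe set. Of 17 recomputed medians per pathway list, the sign turned or was lost in 6 for lumenal chaperones, 5 for PERK and ATF4 targets, 1 for sensors, 1 for entry and export and 0 for degradation. The block and the trend and robust variances cannot change these medians either. No alternative brought 1 of the 10 genes past the threshold (limma adjusted p 0.841 to 1). The replicate block changed no call among the 10 genes. With the block and without both samples numbered 4, an alternative added after the values had been seen, 1 gene of all passed the threshold, Col14a1, named here because it was seen to pass. An unadjusted p under 0.05 was found for 578 genes, 649 after renewed quantile normalisation and 367 to 888 with 1 sample left out. It was found for 868 without both samples numbered 4 and 985 there with the block. Among the brighter genes alone, those above the median of all gene means, it was found for 256, a count over fewer genes. For the 10 genes these counts were 0 in the main test, 1 after renewed quantile normalisation (Ddit3), 0 to 3 with 1 sample left out, 1 without both samples numbered 4 and 2 there with the block. Reversed were Atf4 as a mean of its probe sets (0.071), Herpud1 without both samples numbered 4, with or without the block (-0.02), and, with 1 sample left out, Hspa5 (-0.01 to 0.077), Atf4 (-0.11 to 0.035), Pdia4 (-0.063 to 0.032) and Sdf2l1 (-0.26 to 0.036). The median r of the 45 pairs was 0.31, 0.596 with the replicate block, 0.096 after renewed quantile normalisation, 0.0995 with the brightness shift subtracted and 0.186 to 0.514 with 1 sample left out. Pairs past the threshold numbered 2, against 4 with means of probe sets, 5 with samples centred on their medians, 0 by rho, 0 after renewed quantile normalisation, 0 with the brightness shift subtracted, 0 without both samples numbered 4, and 0 to 3 with 1 sample left out. They were 0 without GW9662 3 and without each of the 4 vehicle samples, and 1 without GW9662 4. The cause of these changes was not tested.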
